A study of Mus musculus with 12 samples.

Results

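The core circadian clock genes are described here in the hippocampus of mice exposed to chemicals of the Gulf War. The set was fixed by symbol and holds Per1, Per2, Per3, Cry1, Cry2, Arntl, Clock, Dbp, Nr1d1 and Nr1d2. All 10 were found among the 41743 genes of the deposited table, and all 10 passed the filter on low values, a mean of at least 0.5 RPKM (reads scaled by the length of the gene and the depth of the library).

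The mice were male C57Bl/6 animals aged 12 weeks. The toxicant group had been injected under the skin on weekdays for 2 weeks with 2.5 mg/kg pyridostigmine bromide, a reversible cholinesterase inhibitor, 12.5 mg/kg chlorpyrifos, an organophosphate insecticide, and 7.5 mg/kg DEET, an insect repellent, and the control group had received vehicle. Whole hippocampi, taken when the exposure ended, were measured by RNA-seq of polyadenylated RNA. The labels name 6 different animals per group and give no time of day at dissection. Controls 4 and 5 agreed exactly in all 41743 genes, less than sampling noise allows between separate libraries, and were counted as 1 sample, control 4-5. This left 5 control and 6 toxicant libraries.

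The clock is a feedback loop of transcription that runs in nearly every cell. The proteins CLOCK and BMAL1, the latter encoded by Arntl, bind E-box sequences and switch on the Per and Cry genes, whose products enter the nucleus and repress their own activators. A second loop is formed by REV-ERBα (Nr1d1) and REV-ERBβ (Nr1d2), which repress Arntl, and by the ROR receptors, which activate it, while DBP carries the rhythm to D-box sequences of output genes. In most tissues Arntl peaks at about the opposite time of day to Nr1d1, Dbp and the Per genes. In the hippocampus the clock is known for gating memory formation and seizure threshold.

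The RPKM scale rested on about 21500000 to 34900000 reads per library. The percentage of these reads that lay on genes of the table, called the genic share below, was 78.4% to 89.5% in controls and 76.8% to 83.8% in toxicant libraries. The 11 hippocampal neuron markers summed to 975 to 1288 RPKM in control and 881 to 1076 RPKM in toxicant libraries, with 0 of 11 at 0. The 8 markers of the suprachiasmatic nucleus, the central clock of the brain, summed to 5.81 to 7.20 and 5.03 to 7.05 RPKM, and 2 of the 8 were at 0 in some library. Oligodendrocyte markers, 10 genes with 0 at 0, summed to 689 to 774 RPKM in controls and 481 to 665 RPKM in toxicant libraries. Endothelial markers (9 genes, 0 at 0) summed to 41.7 to 53.0 and 36.9 to 40.3 RPKM, which also did not overlap, and microglial markers (10 genes, 0 at 0) to 138 to 189 and 117 to 147 RPKM, which did. The 10 choroid plexus markers summed to 17.9 to 2916 RPKM in control and 15.9 to 1824 RPKM in toxicant libraries, and thus differed widely within both groups. The part of these cell types in the clock gene values was not tested. The clock genes rested on 221 to 3570 reads per gene and library. In whole tissue, fewer cells of a type and less RNA per cell cannot be told apart.

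The regulatory letters of the loop can be seen in the promoters of 4 members, shown because they were the ones whose window held one of the motifs searched. Windows of 300 bases, from 250 before to 50 after a transcript start, were taken from RefSeq (GRCm38.p6), which had 13 windows for 9 of the 10 genes and none for Per2. Searched on both strands were the E-box CACGTG, the D-box as TTATGTAA or TTACGTAA, the ROR/REV-ERB element as TAGGTCA or TGGGTCA, and the CRE TGACGTCA. No match overlapped one of another motif. Capitals mark the match, and the 250 bases before the start are printed for Per1 (chr11:69098699-69098948, plus strand), Per3 (chr4:151044666-151044915, minus strand) and Cry1 (chr10:85185055-85185304, minus strand). For Arntl the 30 bases around the match are printed (chr7:113207530-113207559, plus strand).
Per1: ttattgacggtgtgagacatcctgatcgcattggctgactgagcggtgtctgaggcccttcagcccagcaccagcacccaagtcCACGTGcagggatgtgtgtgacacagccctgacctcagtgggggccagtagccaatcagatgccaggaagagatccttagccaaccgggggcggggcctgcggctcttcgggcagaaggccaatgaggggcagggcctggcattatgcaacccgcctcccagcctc
Per3: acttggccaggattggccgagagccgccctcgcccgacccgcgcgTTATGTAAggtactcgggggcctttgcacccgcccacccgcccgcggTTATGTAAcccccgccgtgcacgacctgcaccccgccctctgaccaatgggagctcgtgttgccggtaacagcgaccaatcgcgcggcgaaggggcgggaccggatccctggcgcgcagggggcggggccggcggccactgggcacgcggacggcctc
Cry1: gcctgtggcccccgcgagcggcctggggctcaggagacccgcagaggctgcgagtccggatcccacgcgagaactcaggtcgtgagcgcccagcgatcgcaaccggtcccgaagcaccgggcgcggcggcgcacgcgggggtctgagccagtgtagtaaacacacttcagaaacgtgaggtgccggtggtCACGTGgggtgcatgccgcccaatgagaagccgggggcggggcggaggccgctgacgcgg
Arntl: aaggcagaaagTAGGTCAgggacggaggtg

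Relative to the transcript start, 1 of the 2 Per1 windows held an E-box at -166, and the Cry1 window held one at -60. An E-box was present in 7.15% of all 32851 promoter windows. Per3 had 2 D-boxes of the letters TTATGTAA, at -205 and -158, and a D-box was present in 1.06% of windows. The ROR/REV-ERB element of Arntl lay 30 bases downstream of the start in 1 of its 2 windows, and such an element was present in 6.45% of windows. None of the 13 windows held the CRE, which 1.79% of all windows did. These are matches of letters in a short window and no measure of binding.

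Of the 10 clock genes, 0 passed an adjusted p of 0.05 between the groups (limma, adjusted over all 13493 genes tested), and 0% of all tested genes did. Over all genes 2737 had an unadjusted p under 0.05, and limma voom on reads recovered from the RPKM steps also called 0. Before adjustment 4 of the 10 had a p under 0.05: Cry2, Arntl and Per1 were lower in toxicant hippocampi and Clock was higher. Of all tested genes, 17.0% were lower and 3.33% higher by that measure. In none of the 10 were all toxicant libraries below all controls, which held for 2.03% of all genes, or above them, which held for 0.111%. In direction alone 7 of the 10 clock genes were lower, the same share as the 70.0% of all genes. The median log2 difference was -0.21 over the clock genes and -0.11 over all genes. Values are on the log2(RPKM + 0.5) scale, toxicant minus control, and each library's level is in the plot of RPKM by gene. The call depended on a single library: without control 2, 5 clock genes passed, Per1, Cry1, Cry2 and Dbp lower and Clock higher, where 28.1% of all genes were called lower, 8.56% higher and 36.6% in either direction. With libraries weighted by their fit, 9 of the 10 passed (all but Per2), where 70.8% of all genes did.

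**Figure D1:**
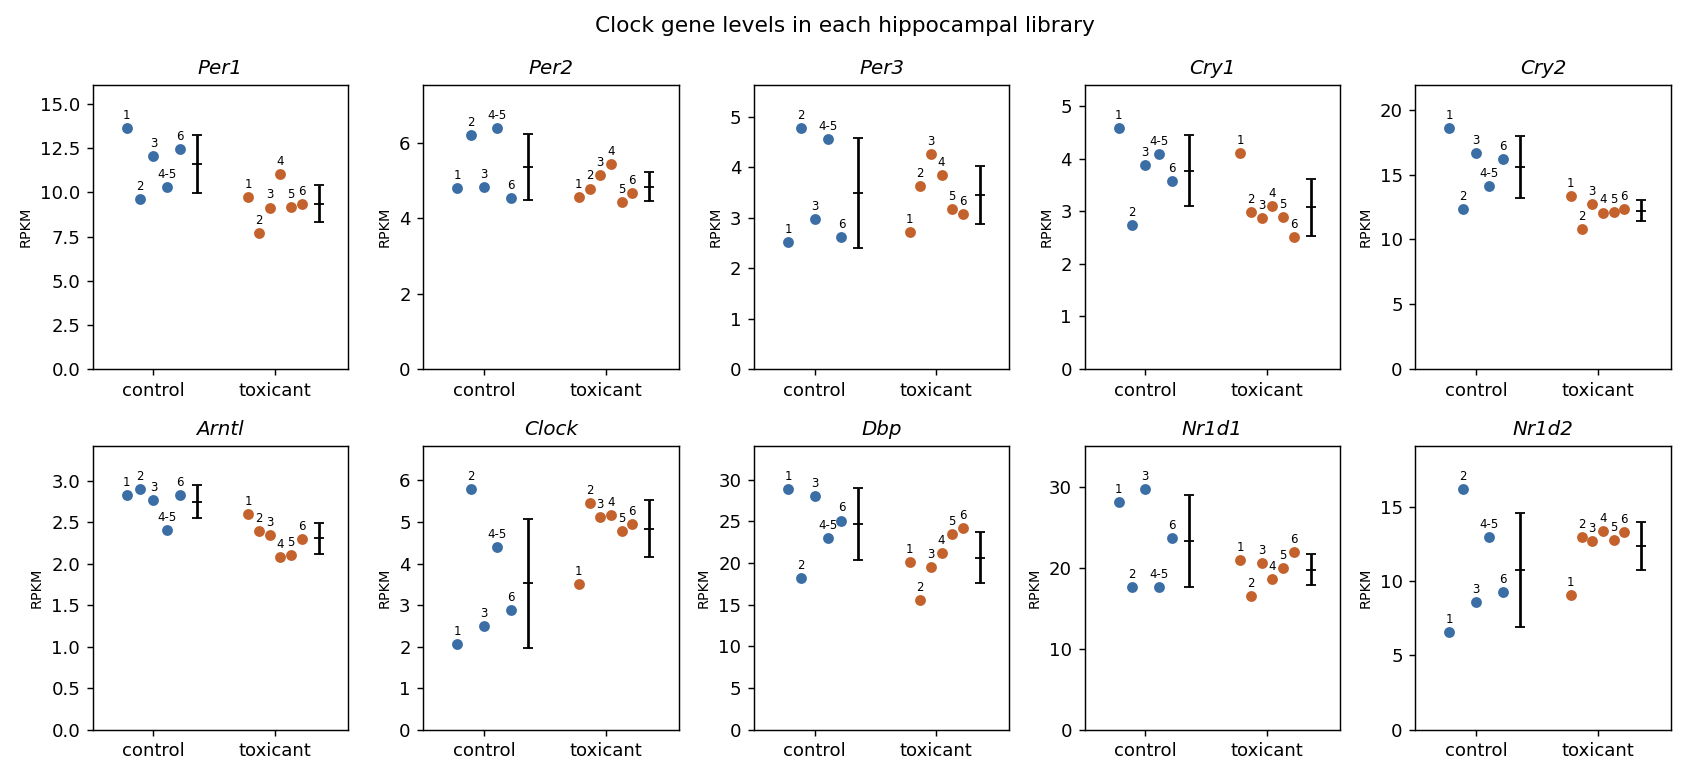
Level of each clock gene in RPKM (vertical axes, from 0) in the 5 control (blue) and 6 toxicant (orange) libraries. Points are single libraries labelled by replicate number, and black marks give the group mean and SD. Arntl controls lie close together apart from control 4-5, while Clock in controls runs from 2.06 to 5.80 RPKM, wider than the toxicant range of 3.52 to 5.46 RPKM.

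Arntl encodes BMAL1, the partner without which the loop does not run. Its levels were 2.83, 2.90, 2.77, 2.41 and 2.83 RPKM in controls 1, 2, 3, 4-5 and 6, and 2.09 to 2.59 RPKM in the toxicant libraries (median 2.33). Of the toxicant libraries 5 lay below the lowest control, and toxicant 1 lay above control 4-5, so the groups overlapped. The group means were 2.75 ± 0.195 RPKM (SD, n = 5) and 2.31 ± 0.190 RPKM (SD, n = 6). This was a log2 difference of -0.21 ± 0.07 (SE; 95% interval -0.37 to -0.06; limma, adjusted p = 0.215). Arntl had the smallest spread of the 10 genes among controls, with a coefficient of variation of 7.08%. The gene (ENSMUSG00000055116) spans chromosome 7 from 113207465 to 113314126 in GRCm38, by GENCODE M21.

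Clock encodes the other activator. It was at 2.06, 5.80, 2.50, 4.39 and 2.87 RPKM in controls 1, 2, 3, 4-5 and 6, and at 3.52 to 5.46 RPKM in toxicant libraries (median 5.04). The 3 controls numbered 1, 3 and 6 lay below every toxicant library, control 4-5 lay inside the toxicant range, and control 2 lay above it. Group means of 3.52 ± 1.54 RPKM (SD, n = 5) and 4.84 ± 0.683 RPKM (SD, n = 6) gave a log2 difference of 0.48 ± 0.20 (SE; limma, adjusted p = 0.234). With the genic share in the model the difference was 0.04 (limma, adjusted p = 0.904), and without control 2 it was 0.66 (limma, adjusted p = 0.0242). In fits without control 1, 3 or 6, or without toxicant 2, 3, 4, 5 or 6, its unadjusted p was above 0.05. At a coefficient of variation of 43.8% in controls, Clock was the most variable of the 10. Clock (ENSMUSG00000029238) lies on chromosome 5 from 76209868 to 76304792.

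The Period genes encode the repressors whose slow build-up sets the timing of the loop. Per1, the member that also answers directly to neuronal activity and to glucocorticoids, was at 13.6, 9.63, 12.1, 10.3 and 12.4 RPKM in the controls and at 7.73 to 11.05 RPKM in toxicant libraries (median 9.27). Below the lowest control were 4 toxicant libraries, and controls 1, 3 and 6 lay above the highest toxicant library. The log2 difference was -0.29 ± 0.10 (SE; 95% interval -0.52 to -0.07; limma, adjusted p = 0.220), from means of 11.6 ± 1.63 RPKM (SD, n = 5) and 9.37 ± 1.07 RPKM (SD, n = 6). Per1 (ENSMUSG00000020893) is on chromosome 11 from 69095217 to 69109960.

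Per2, whose loss shortens or abolishes the rhythm of behaviour, was at 4.79, 6.21, 4.82, 6.38 and 4.54 RPKM in controls and at 4.43 to 5.44 RPKM in toxicant libraries (median 4.72). Controls 2 and 4-5 stood above all toxicant libraries, and the other controls lay within their range. Its log2 difference of -0.12 ± 0.10 (SE; limma, adjusted p = 0.393) became -0.29 with the genic share in the model (limma, adjusted p = 0.210). Per3, a Period gene that the loop can run without, was at 2.52, 4.78, 2.98, 4.56 and 2.61 RPKM in controls and at 2.71 to 4.27 RPKM in toxicant libraries (median 3.40). Again controls 2 and 4-5 were the highest libraries, and controls 1 and 6 the lowest. The log2 difference of Per3 was 0.02 ± 0.16 (SE; limma, adjusted p = 0.951), and -0.31 with the genic share in the model (limma, adjusted p = 0.289). Per2 (ENSMUSG00000055866) spans chromosome 1 from 91415982 to 91459324 and Per3 (ENSMUSG00000028957) chromosome 4 from 151003652 to 151044665.

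The Cryptochromes bind the Period proteins and do the repressing. Cry2 was at 18.6, 12.3, 16.6, 14.2 and 16.2 RPKM in the controls and at 10.8 to 13.3 RPKM in the toxicant libraries (median 12.2). All controls but control 2 lay above the highest toxicant library. It had the smallest p of the 10 genes, with a log2 difference of -0.33 ± 0.10 (SE; 95% interval -0.54 to -0.11; limma, adjusted p = 0.205). The means were 15.6 ± 2.41 RPKM (SD, n = 5) and 12.2 ± 0.842 RPKM (SD, n = 6). Cry2 (ENSMUSG00000068742) spans chromosome 2 from 92403646 to 92434043 and shares 295 exonic bases, 4.67% of its exon length, with the antisense transcript D930015M05Rik, whose reads cannot be told apart without strand.

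Cry1, the stronger repressor in most assays, was at 4.58, 2.74, 3.88, 4.09 and 3.58 RPKM in controls and at 2.51 to 4.11 RPKM in toxicant libraries (median 2.94). Only control 1 lay above toxicant 1, the highest of its group, and only toxicant 6 lay below control 2, the lowest control. The log2 difference was -0.25 ± 0.13 (SE; limma, adjusted p = 0.255). Cry1 (ENSMUSG00000020038), on chromosome 10 from 85131700 to 85185064, rested on the fewest reads of the 10, 221 to 433 per library.

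Nr1d1 and Nr1d2 encode the REV-ERB receptors, repressors that bind heme and cycle in nearly the same phase in most tissues. Nr1d1 was at 28.1, 17.7, 29.7, 17.6 and 23.7 RPKM in the controls and at 16.5 to 21.9 RPKM in toxicant libraries (median 20.3). Nr1d2 was at 6.57, 16.2, 8.57, 12.96 and 9.28 RPKM in controls and at 9.07 to 13.3 RPKM in toxicant libraries (median 12.9). The controls that were high in Nr1d1 (1, 3 and 6) were the low ones in Nr1d2. The log2 difference was -0.21 ± 0.14 (SE; limma, adjusted p = 0.341) for Nr1d1 and 0.25 ± 0.19 (SE; limma, adjusted p = 0.375) for Nr1d2. With the genic share in the model both turned sign, to 0.07 (limma, adjusted p = 0.788) and -0.13 (limma, adjusted p = 0.668). Nr1d1 (ENSMUSG00000020889), on chromosome 11 from 98767932 to 98775333, overlaps the 3′ end of the thyroid hormone receptor gene Thra on the opposite strand by 263 exonic bases, 8.55% of its exon length. Nr1d2 (ENSMUSG00000021775) lies on chromosome 14 from 18204054 to 18239127.

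Dbp encodes the output factor with the widest daily swing of the set in most tissues. It was at 28.9, 18.2, 28.0, 23.0 and 25.1 RPKM in the controls and at 15.5 to 24.2 RPKM in the toxicant libraries (median 20.6). Controls 1, 3 and 6 stood above all toxicant libraries, and toxicant 2 was the lowest of all libraries. The log2 difference was -0.25 ± 0.14 (SE; limma, adjusted p = 0.274), and -0.02 with the genic share in the model. Dbp (ENSMUSG00000059824), on chromosome 7 from 45705088 to 45710203, shares 539 exonic bases, 18.01% of its exon length, with Sphk2 on the opposite strand.

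Ordered by control level per length, Dbp (24.7 RPKM) and Nr1d1 (23.4 RPKM) led, followed by Cry2 (15.6 RPKM), Per1 (11.6 RPKM) and Nr1d2 (10.7 RPKM). Per2 (5.35 RPKM), Cry1 (3.77 RPKM), Clock (3.52 RPKM), Per3 (3.49 RPKM) and Arntl (2.75 RPKM) came after. The control ranges of neighbours in this order overlapped, except between Nr1d2 and Per2. In toxicant libraries Nr1d2 took the 3rd place at 12.4 RPKM and Clock the 7th at 4.84 RPKM, with Cry1 9th at 3.08 RPKM.

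A ratio of members within a library does not move with the scaling between libraries. The log2 ratio of Dbp to Arntl was 3.15 ± 0.290 (SD, n = 5) for controls against 3.15 ± 0.302 (SD, n = 6) for toxicant libraries, a difference of 0.0031. Nr1d1 to Arntl was 3.06 ± 0.331 and 3.10 ± 0.175. For Per2 to Arntl the log2 ratios were 0.95 ± 0.301 and 1.07 ± 0.188, and for Per3 to Arntl 0.29 ± 0.498 and 0.57 ± 0.305. In these 4 ratios the group difference was smaller than the SD of either group. Clock to Arntl was 0.26 ± 0.643 and 1.06 ± 0.311, a difference of 0.80. Here control 1 was at -0.46 and control 2 at 1.00, so controls spanned more than the group difference. All toxicant libraries but toxicant 1 (0.44) lay at 1.11 to 1.31, above every control. This ratio and the next were not among those planned. Nr1d2 to Nr1d1 ran from -2.10 to -0.13 in controls and from -1.21 to -0.35 in toxicant libraries.

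After the group means were removed, 13 of the 45 pairs were correlated over the 11 libraries, 9 of them positively and 4 negatively. The test was exact permutation within groups, with Benjamini-Hochberg adjustment over the 45 pairs. What share of all gene pairs would pass was not counted, so the 13 cannot be called particular to clock genes. Nr1d1 with Dbp, a pair that passed at r = 0.80, ranked 1686 of 13492 genes by likeness to Dbp. Per2, Per3, Clock and Nr1d2 had a positive r in all 6 of their pairs (r = 0.76 to 0.99). All 6 were positive with the genic share also removed (0.13 to 0.95) and without the 2 libraries farthest from the median of a gene of the pair (0.21 to 0.98), and the weakest pair was Per2 with Nr1d2 in each case. Per1, Cry1, Cry2, Dbp and Nr1d1 had a positive r in all 10 of theirs (r = 0.32 to 0.88, and 0.16 to 0.85 without those 2 libraries). With the genic share removed 8 of these 10 were positive (-0.28 to 0.89), and Cry1 with Nr1d1 (-0.28) and Cry1 with Dbp (-0.17) were negative. Across these sets, which were drawn up after the values were seen, all 20 pairs were negative (r = -0.95 to -0.30). Without those 2 libraries they ran from -0.90 to 0.013, and with the genic share removed 15 were negative and 5 positive (-0.73 to 0.36). Within the 6 toxicant libraries alone they ran from -0.91 (Cry1 with Nr1d2) to 0.43 (Per1 with Per2). Dbp with Nr1d2 was also positive there, at 0.09, and the rest were negative, with Per1 and Per3 at -0.05. The opposition of the sets was thus not the same in both groups. The tightest pair was Clock with Nr1d2, at r = 0.99 and Spearman rho = 0.94 (exact permutation p = 0.000590 and 0.00178, adjusted p = 0.0133 and 0.0242). That r was 0.98 without controls 1 and 3, the libraries farthest from the median of Clock. The number of pairs past the adjusted threshold rested on single libraries: it was 0 without control 1, without control 2, without control 3 or without control 6, and 4 without toxicant 2.

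**Figure D2:**
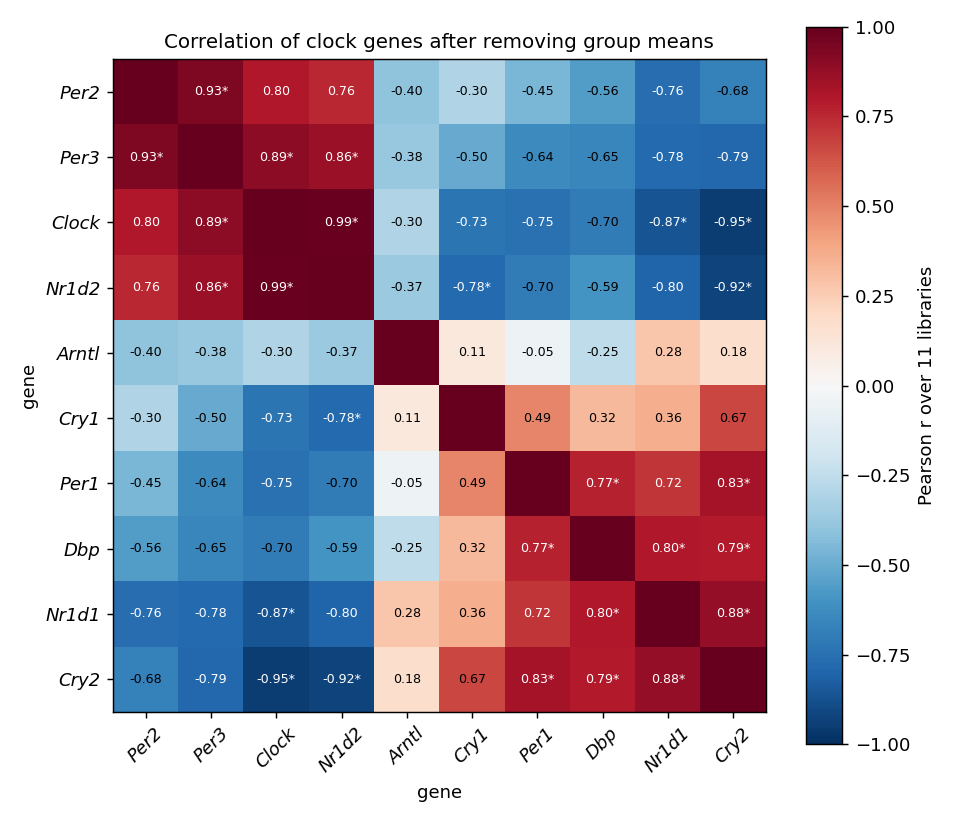
Pearson r between clock genes over 11 libraries after the group means were removed (colour and printed value). Stars mark the 13 pairs with an adjusted p under 0.05 by exact permutation. Per2, Per3, Clock and Nr1d2 form 1 red block, Cry1, Per1, Dbp, Nr1d1 and Cry2 another, and Arntl is pale against both.

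Pairs with a known phase relation over the day were read the same way. Nr1d1 and Dbp, which peak close together, had r = 0.80 and rho = 0.78 (exact permutation p = 0.00251 and 0.0195, adjusted p = 0.0188 and 0.0753), and r = 0.68 without control 2 and toxicant 2. Per2 and Per3 had r = 0.93 and rho = 0.93 (exact permutation p = 0.00248 and 0.00374, adjusted p = 0.0188 and 0.0307), and r = 0.77 without controls 2 and 4-5. The paralogs Nr1d1 and Nr1d2 had r = -0.80 and rho = -0.79 (exact permutation p = 0.0328 and 0.0300, adjusted p = 0.0770 and 0.0819), and r = -0.64 without controls 1 and 3. Arntl and Dbp, which oppose each other in phase, had r = -0.25 and rho = -0.30 (exact permutation p = 0.464 and 0.401, adjusted p = 0.509 and 0.515), and r = -0.19 without controls 1 and 2. After median-ratio scaling Arntl with Dbp was at r = -0.66 (exact permutation, adjusted p = 0.0986). With the genic share also removed, r was 0.47 for Nr1d1 with Dbp and 0.76 for Per2 with Per3. It was then -0.23 for Nr1d1 with Nr1d2 and -0.73 for Arntl with Dbp. The values with the share removed were not tested. Of the 9 pairs with Arntl, 0 passed.

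The members divided in the same way by their relation to the genic share. After the group means were removed, 7 of the 10 genes were correlated with that share (exact permutation within groups, Benjamini-Hochberg over the 10). Clock had r = -0.91 and rho = -0.94 (exact permutation p = 0.000231 and 0.000405, adjusted p = 0.00231 and 0.00405), Nr1d2 r = -0.87 (rho = -0.88), Per3 r = -0.86 (rho = -0.89) and Per2 r = -0.83 (rho = -0.83). In the other direction were Cry2 at r = 0.89 (rho = 0.91), Nr1d1 at r = 0.86 (rho = 0.91) and Dbp at r = 0.75 (rho = 0.75). For these 7 genes the adjusted p of r ran from 0.00231 to 0.0213 and that of rho from 0.00405 to 0.0389 (exact permutation). Arntl was at r = 0.28 (exact permutation p = 0.423), and Per1 and Cry1 both at r = 0.56. Single libraries moved these: Per1 was at 0.94 without toxicant 4 (exact permutation, adjusted p = 0.00174) and 0.31 without control 2, Cry1 at 0.19 without control 2, and Arntl at 0.69 without control 2. Within the 6 toxicant libraries alone Per1 was at r = -0.10, while the other clock genes kept the sign of their r. Without control 1 and toxicant 4, the libraries farthest from the median share, r was -0.95 for Clock, -0.89 for Nr1d2, 0.96 for Cry2, 0.83 for Dbp, 0.93 for Per1 and 0.05 for Arntl. Leaving out any single library left 6 to 8 genes past the threshold. Without control 1, 2 or 4-5 Dbp was not among them, and without control 2 its r was 0.56. Of all 13493 tested genes, 32.3% had an r above 0.8 with the share and 13.3% one below -0.8, so relations of this size were common. By the same measure, 2 of the 10 clock genes were above 0.8 and 4 were below -0.8. How many of all genes would pass the permutation threshold was not counted.

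**Figure D3:**
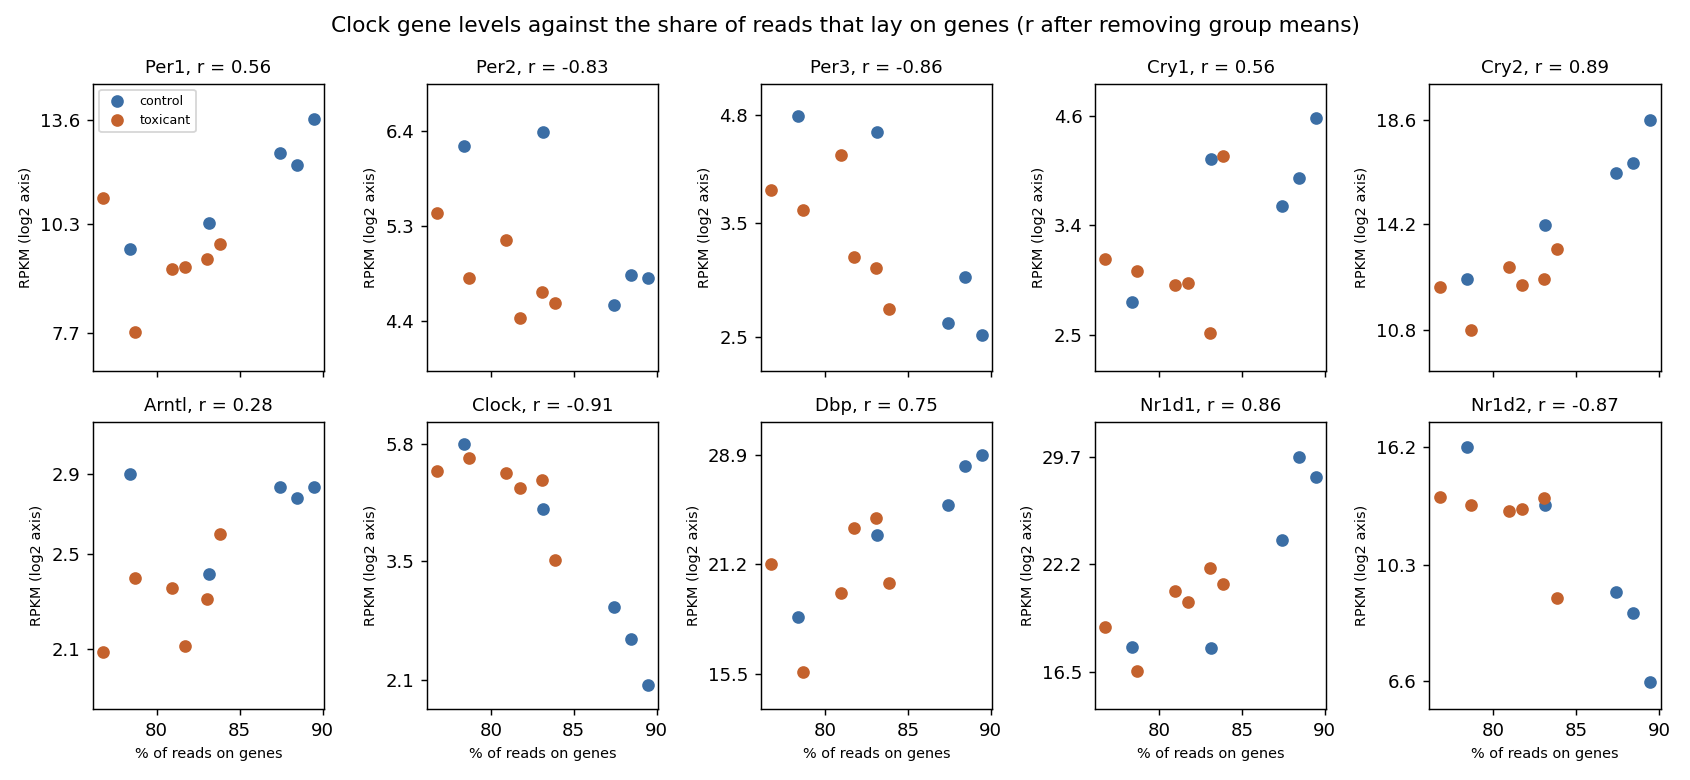
Level of each clock gene (vertical axes, RPKM on a log2 scale) against the percentage of reads that lay on genes (horizontal axes) in the 5 control (blue) and 6 toxicant (orange) libraries. The r in each title is after removal of group means. Clock and Nr1d2 are highest where the share is low, Cry2 and Nr1d1 where it is high, and control 2, at 78.4%, lies among the toxicant libraries.

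The member transcripts differ in composition partly along the same line. The longest transcripts of Clock and Nr1d2 had the lowest GC contents of the set, 40.9% and 41.8%, and those of Dbp and Per1 the highest, 61.6% and 59.4%. Clock also had the longest transcript, at 9744 bases, and Dbp the shortest, at 1837 bases. The division did not follow either trait throughout. Per2 (54.3%) and Per3 (52.4%), with a negative r to the share, had more GC than Cry1 (51.6%) and Arntl (48.2%), with a positive r. Nr1d2 and Per1 were alike in length, at 4663 and 4671 bases. Over the 10 genes, the r with the genic share correlated at 0.68 with GC content and at -0.78 with log2 transcript length. The group difference correlated with GC content at -0.83. These are descriptions over 10 genes that share the same libraries.

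Fitting the genic share beside the group changed which members stood out. Then 4 clock genes had an unadjusted p under 0.05, all lower in toxicant libraries: Per2, Per3, Cry2 (-0.14) and Arntl (-0.18), where 9.13% of all genes were lower and 4.34% higher by that measure. The log2 difference of Clock moved from 0.48 to 0.04. The share itself averaged 85.4 ± 4.58% in controls (SD, n = 5) and 80.8 ± 2.68% in toxicant libraries (SD, n = 6). Group and share thus cannot be fully told apart in this fit. Of the 10, 0 passed after adjustment over all genes. After median-ratio scaling, which moved the median of all genes from -0.11 to 0.0014, Cry2 was at -0.20 (limma, adjusted p = 0.372) and Clock at 0.59 (limma, adjusted p = 0.372), and the other 8 had an unadjusted p above 0.05. Of all genes 5.14% were then lower and 8.19% higher by that measure. With quantile normalization Cry2 (-0.20) and Arntl (-0.19) were lower and Clock (0.50) higher at an unadjusted p under 0.05, beside 8.69% and 6.30% of all genes. Of the 7 lower genes, 5 had a negative log2 difference under each of the 23 alternatives run: Per1 (-0.40 to -0.16), Cry1 (-0.35 to -0.10), Cry2 (-0.41 to -0.14), Arntl (-0.27 to -0.10) and Dbp (-0.35 to -0.02). The alternatives refit the same libraries, many with only a single library left out. How many of all genes stayed lower in each was not counted, and 70.0% were lower in the main fit.

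**Figure D4:**
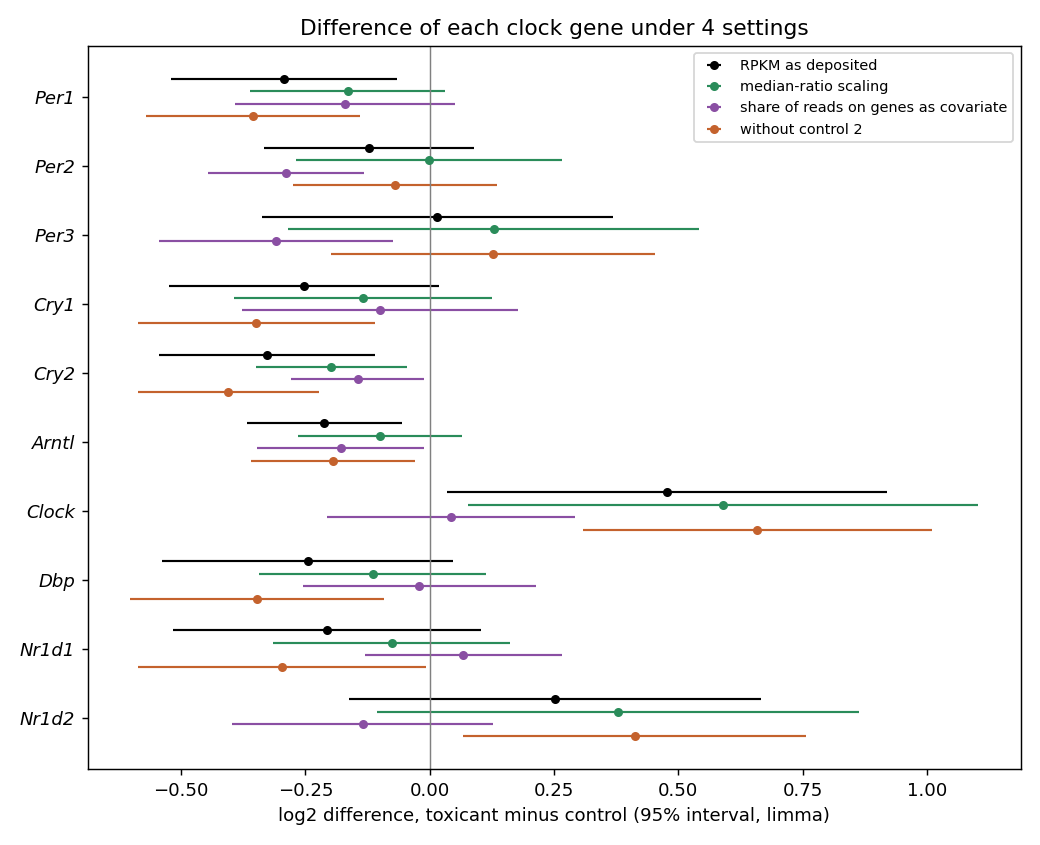
Log2 difference of each clock gene, toxicant minus control, with its 95% interval from limma (horizontal axis), under 4 settings marked by colour. Cry2 stays left of 0 in all 4, while Clock moves from 0.48 to 0.04 and Per3 from 0.02 to -0.31 when the genic share is in the model.

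Genes that work beside the core members were taken from lists written out by role, and 0 of them passed after adjustment. Among E-box repressors and the PAR-bZIP factors that bind D-boxes with DBP, 6 of 7 passed the filter, all 6 were lower, and 3 had an unadjusted p under 0.05, beside 70.0% and 17.0% of all genes. The median log2 difference was -0.24, against -0.11 over all genes. Under median-ratio scaling all 6 were lower, 1 with an unadjusted p under 0.05, and the median was -0.12. Tef, a D-box activator like DBP, was at 40.9 ± 4.37 RPKM (SD, n = 5) and 34.2 ± 1.55 RPKM (SD, n = 6), a log2 difference of -0.25 ± 0.08 (SE; limma, adjusted p = 0.209). Hlf, the remaining factor of that family, had -0.17 ± 0.08 (SE; limma, adjusted p = 0.244), and Bhlhe40, which competes for E-boxes, -0.25 ± 0.10 (SE; limma, adjusted p = 0.223). Ciart, a repressor of CLOCK and BMAL1, had -0.26 ± 0.12 (SE; limma, adjusted p = 0.252). With the genic share in the model all 6 were lower, with a median of -0.10.

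Of 13 genes for the modification and turnover of clock proteins, 12 were tested, 8 were lower and 5 of these had an unadjusted p under 0.05, beside 70.0% and 17.0% of all genes. Usp2, a deubiquitinase that itself cycles in most tissues, was at 10.9 ± 1.56 RPKM (SD, n = 5) and 8.27 ± 0.917 RPKM (SD, n = 6), and only 1 toxicant library lay above the lowest control. Its log2 difference was -0.38 ± 0.11 (SE; limma, adjusted p = 0.199). Siah2, a ubiquitin ligase, had -0.33 ± 0.10 (SE; limma, adjusted p = 0.202), and the F-box genes Btrc and Fbxw11, which send phosphorylated PER for degradation, -0.21 and -0.28. Under median-ratio scaling 6 of the 12 were lower, 2 of them at an unadjusted p under 0.05, and the median was -0.0049.

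Among activators and paralogs, Rorb and Rora, the receptors that oppose REV-ERB at Arntl, had log2 differences of 0.25 ± 0.14 (SE; limma, adjusted p = 0.272) and 0.26 ± 0.17 (SE; limma, adjusted p = 0.321). With the genic share in the model these were -0.0081 and -0.06. Npas2, a stand-in for CLOCK in the forebrain, had -0.13 ± 0.11 (SE; limma, adjusted p = 0.399), and Arntl2, the paralog of Arntl, 0.20 ± 0.19 (SE; limma, adjusted p = 0.462). Of the 14 cofactors 9 were lower, beside 70.0% of all genes, and 2, beside 17.0%, had an unadjusted p under 0.05, the splicing-related protein gene Nono (-0.24 ± 0.09) and the methyltransferase subunit Wdr5 (-0.22 ± 0.10). Next came Cipc, a repressor that binds CLOCK (-0.12 ± 0.06), and the ubiquitin ligase subunit Ddb1 (-0.27 ± 0.14). Under median-ratio scaling 4 cofactors were lower and 10 higher, 0 with an unadjusted p under 0.05, and the median turned from -0.07 to 0.05. Of 13 tested widely cycling output genes 9 were lower and 3 had an unadjusted p under 0.05, again beside 70.0% and 17.0% of all genes. Under median-ratio scaling 5 were lower and 8 higher, 0 with an unadjusted p under 0.05. The 3 were the cold-inducible RNA-binding genes Cirbp (-0.31 ± 0.12) and Rbm3 (-0.22 ± 0.10) and the receptor gene Ppard (-0.18 ± 0.07). Nampt, the enzyme that sets the daily supply of NAD, came next at 0.37 ± 0.20 (SE; limma, adjusted p = 0.268).

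Per1 is induced by neuronal activity and by glucocorticoids, so genes of both kinds stand beside it. Of 14 tested activity-induced genes 13 were lower, beside 70.0% of all genes, with a median of -0.37. Btg2 and Arc, named for the smallest p of that list, had log2 differences of -0.57 and -0.87 (limma, adjusted p = 0.0715 each). Both had all 6 toxicant libraries below the lowest control, which held for 2.03% of all genes. Per1, at -0.29, lay between that median and the -0.03 over 15 glucocorticoid-induced genes, of which 9 were lower, beside 70.0% of all genes. Under median-ratio scaling 6 glucocorticoid-induced genes were lower and 9 higher (median 0.07), and 12 of the 14 activity-induced genes were lower (median -0.27). In the glucocorticoid-induced list Nfkbia had -0.45 ± 0.13 (SE; limma, adjusted p = 0.202) and Ddit4 -0.44 ± 0.14 (SE; limma, adjusted p = 0.207).

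By likeness of pattern over the 11 libraries (Pearson r of deviations from the group mean), the genes closest to Dbp were Taf1c and S100a1 (r = 0.97 each), and Nol3, Ost4 and Ppil1 (r = 0.96 each). Among clock genes the closest to Dbp was Nr1d1, at rank 1686 of 13492. The genes closest to Arntl were Srgap1 (r = 0.81), Hspa12b (r = 0.80), P2rx4 (r = 0.79), Nme6 (r = 0.76) and Armcx6 (r = 0.74), and the closest clock gene was Nr1d1 at rank 2331. Clock genes, predicted genes and pseudogenes were left out of the named neighbours, while the ranks of the clock genes are over all tested genes.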

How the data were processed

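The deposited table gave 1 RPKM value per gene and library, made by the authors, per the file headers. For the aligner, the read counter, the annotation and the genome build, names were not given in the sources used here. Columns were matched to samples through the code in each sample's description. Reads were recovered from the RPKM steps with GENCODE M21 exon lengths (41675 of 41743 IDs matched). Between 98.3% and 98.4% of values came out whole within 0.05 reads.

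The 13493 genes averaging at least 0.5 RPKM were tested on log2(RPKM + 0.5) with limma 3.58.1 in R 4.3.3 (lmFit, eBayes with trend, two-sided, no covariate), with Benjamini-Hochberg adjustment over all of them and a threshold of 0.05. This scale understates differences of low genes. Of the 12 columns, the 2 with identical values were counted once. Correlations used deviations from group means and all 86400 permutations within groups, two-sided, in Python 3.11.15. The fit was tested on simulated data. The kit's strandedness is not stated.

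Named were the 10 clock genes and up to 4 members of each related clock list with the smallest p. Of the activity and glucocorticoid lists up to 2 were named by the same rule. Also named were the 5 genes most like Dbp and Arntl, leaving out clock genes, predicted genes and pseudogenes. The members and lists were chosen with earlier results of these data known. Alternatives were other pseudocounts, filters, scalings, variance models, weights, a replicate block, a covariate, the 12 columns, each library left out and an exact rank-sum test. limma voom on recovered reads was chosen after seeing the data, as was the relation to the genic share.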

Additional observations from a re-analysis of the deposited data

Results flagged for a closer look

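In 4 of the 20 groups of values tested (10 genes in each of 2 groups), 1 library stood beyond Dixon's 95% critical value. Chance flags about 1 in 20 independent groups. The 10 genes were measured in the same libraries and are correlated, so no excess over chance can be read from the count. In 3 of the 4 the library was toxicant 1: Cry1 at 4.11 RPKM, the highest of its group, Clock at 3.52 RPKM, the lowest, and Nr1d2 at 9.07 RPKM, the lowest. In each of the 3, toxicant 1 lay on the side of controls 1, 3 and 6, and it had the highest genic share of the toxicant libraries, 83.8%. The remaining one was Arntl in control 4-5, at 2.41 RPKM the lowest control.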

How the results depend on the processing

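The number of genes called was 0, and 1 with a pseudocount of 0.1 RPKM, 9 with all 12 columns, 9553 with sample weights, and 0 to 4932 with a library left out (4932 without control 2). The sample weights gave control 6 a weight of 12.5 and control 2 one of 0.132. The count of clock genes called was 0, 9 with sample weights, and 0 to 5 with a library left out. Clock genes lower at an unadjusted p under 0.05 numbered 3, 1 with median-ratio scaling, 6 with sample weights, 5 with the replicate block and 3 to 6 with a library left out. Those higher numbered 1 (Clock), 3 with sample weights, 0 with the genic share in the model, with all 12 columns or the exact rank-sum permutation test, and 0 to 2 with a library left out. The median log2 difference of the clock genes was -0.21, -0.077 with quantile normalization, -0.089 with median-ratio scaling and -0.14 with the genic share in the model. Correlated pairs of clock genes numbered 13, and 0 to 18 with a library left out.

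The log2 difference of Per3 turned from 0.02 to -0.31 with the genic share in the model, -0.049 with all 12 columns and -0.075 to 0.13 with a library left out. It was -0.075 without control 1, -0.02 without control 3, -0.06 without control 6, -0.04 without toxicant 3 and -0.02 without toxicant 4. Per2 turned to 0.038 with sample weights, and Nr1d1 to 0.068 and Nr1d2 to -0.13 with the genic share in the model. The r of Arntl with Nr1d1, Per2 and Per3 was 0.28, -0.40 and -0.38, and -0.16, 0.25 and 0.18 after median-ratio scaling. With Nr1d1 it was -0.079 without control 4-5 and 0.51 without control 2. The cause of these shifts was not tested.

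Same-numbered control and toxicant libraries had correlations of deviations from -0.30 to 0.62, above 0.1 in 4 of 5 pairs, and 1 of 5 controls correlated best with its own number, so the numbers were not taken to pair animals. Counting error is largest for Cry1, on 221 to 433 reads per library.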
